A study of Oryza sativa with 8 samples.

Results

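OSH1 and OSH15 are KNOTTED1-like homeobox (KNOX) genes of rice, and their transcripts were followed through the 3 groups of a shoot apical meristem RNA sequencing study. The members were the rows of the deposited table at locus Os03t0727000 for OSH1 and at locus Os07t0129700 for OSH15. Each locus had 1 transcript model, Os03t0727000-01 and Os07t0129700-01, so the 2 genes were 2 of 43481 models and of 36819 loci. By the identifiers OSH1 lies on chromosome 3 and OSH15 on chromosome 7. The table annotates the OSH15 row by that name and the OSH1 row as similar to a homeobox protein. The cultivar Nipponbare, the control, gave 2 libraries by the labels. Another 3 came from GW6a-4.6, a chromosome segment substitution line in which a fragment of Kasalath genome replaces the Nipponbare sequence. The last 3 came from OsglHAT1-OE, transgenic plants in the Nipponbare background. All were single-end libraries of DNase-treated total RNA, and the promoter of the transgene, the number of lines or clones, the growth stage and the sampling batch were not given in the sources used here. The labels do not say that replicates were separate plants, so p-values measure the spread between these libraries, which may be technical.

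KNOX proteins of the type of OSH1 and OSH15 are transcription factors that keep cells of the shoot meristem undetermined. They act as partners of BELL-type homeodomain proteins, and in plants they are known for raising cytokinin synthesis and lowering gibberellin in the meristem. OSH1 is the rice counterpart of maize KNOTTED1 and is switched off where a leaf primordium starts, whereas OSH15 is known for its role in internode growth. Loss of OSH15 gives a dwarf plant.

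Library totals, inferred from what 1 read adds to a value, were 5207710 to 7667853 reads. The values are reads per transcript model scaled to a fixed library total (RPM), and which reads the total counts was not given. One library stood apart, replicate 3 of those labelled OsglHAT1-OE. Its counts summed over all models were 2.41 times its inferred total, where the other 7 libraries had 2.66 to 2.69. Its median-ratio scaling factor was 0.857, while the others ran from 0.996 to 1.06. The GW6a/OsglHAT1 transcript itself (Os06t0650300-00, annotated as an acetyltransferase) was at 1.46 and 2.3 in Nipponbare, at 2570 to 2910 in GW6a-4.6 and at 8.87 to 13.2 in OsglHAT1-OE. The transcript was thus far lower in the libraries labelled as overexpressing it than in the substitution line, which goes against the label. Whether samples were exchanged between the lines, or whether reads of the transgene count at this model, was not tested. GW6a-4.6 and OsglHAT1-OE below mean the libraries labelled so, and every direction between the lines rests on those labels.

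OSH1 was about 3 times as high in either line as in Nipponbare. Its values were 33.3 and 30.0 in Nipponbare, 96.4, 109 and 88.6 in GW6a-4.6, and 112, 109 and 95.7 in OsglHAT1-OE. Every library of either line lay above both Nipponbare libraries, and the libraries of the 2 lines overlapped each other. The group means were 31.7 ± 2.4 (SD, n = 2), 98.0 ± 10 (n = 3) and 106 ± 8.7 (n = 3), which rest on 384, 1599 and 2247 reads. The fold over Nipponbare was 3.1 in GW6a-4.6, a log2 change of 1.60 (SE 0.12, limma adjusted p = 3.94e-14). In OsglHAT1-OE it was 3.33, a log2 change of 1.70 (SE 0.12, limma adjusted p = 4.53e-15). The lines are compared with the same 2 Nipponbare libraries, so these results are not independent of each other.

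OSH1 was not called between the lines on the deposited values, with a log2 change of 0.11 from GW6a-4.6 to OsglHAT1-OE (95% interval -0.11 to 0.32, limma adjusted p = 0.473), but it was called higher in OsglHAT1-OE after median-ratio scaling (0.26, adjusted p = 0.0195), in edgeR (0.26, adjusted p = 0.0115) and in DESeq2 (0.26, adjusted p = 0.0296). Scaled by median ratios, the values were 91.2, 104 and 83.7 in GW6a-4.6 and 113, 109 and 112 in OsglHAT1-OE, and no longer overlapped. The scaling raised replicate 3 of OsglHAT1-OE most. Whether OSH1 was higher in OsglHAT1-OE than in GW6a-4.6 therefore depended on the scaling, and the size in question was small beside the rise over Nipponbare.

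OSH15 rose in both lines too, but by unequal amounts. Its values were 50.2 and 47.2 in Nipponbare, 179, 150 and 177 in GW6a-4.6, and 101, 103 and 80.8 in OsglHAT1-OE. No groups overlapped, and the order was Nipponbare, then OsglHAT1-OE, then GW6a-4.6. The means were 48.7 ± 2.1 (SD, n = 2), 169 ± 16 (n = 3) and 94.9 ± 12 (n = 3), from 589, 2763 and 2025 reads. OSH15 was 3.46-fold above Nipponbare in GW6a-4.6 (log2 change 1.77, SE 0.11, limma adjusted p = 8.49e-16) and 1.95-fold above it in OsglHAT1-OE (log2 change 0.94, SE 0.11, limma adjusted p = 7.85e-09). GW6a-4.6 exceeded OsglHAT1-OE 1.78-fold, a log2 change of -0.83 from GW6a-4.6 to OsglHAT1-OE (95% interval -1.03 to -0.62, limma adjusted p = 3.56e-08). After median-ratio scaling that change was -0.67 (adjusted p = 6.63e-08), and the groups still did not overlap, with 170, 143 and 167 against 101, 103 and 94.3.

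**Figure D1:**
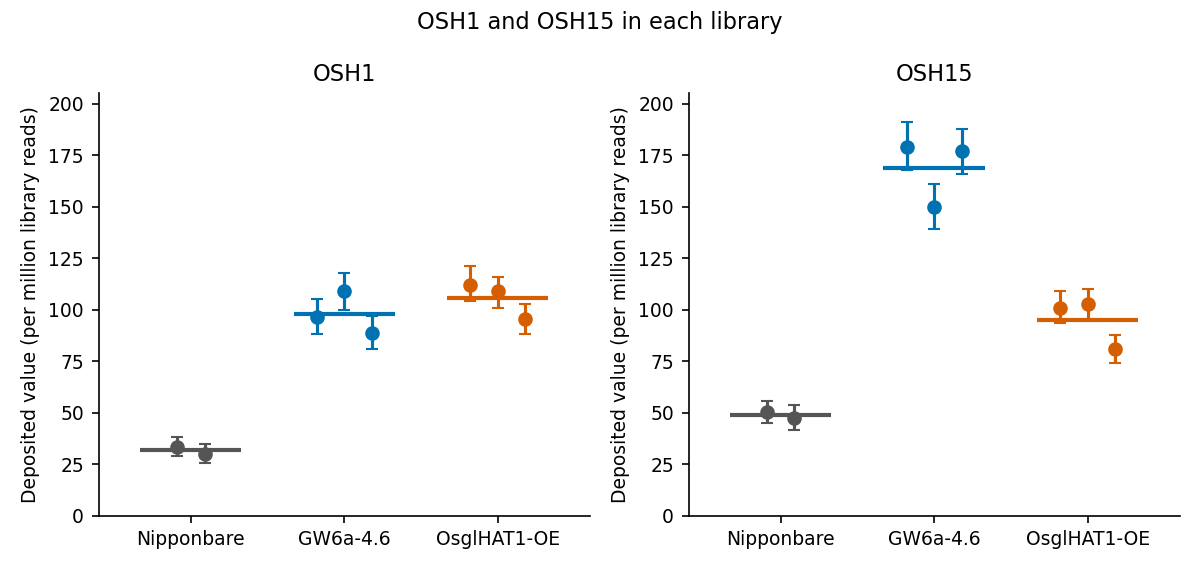
Deposited values of OSH1 (left) and OSH15 (right) in each library, in RPM; points are libraries with exact Poisson 95% intervals, which cover counting error only, and lines are group means. OSH1 stands at 30.0 to 33.3 in Nipponbare and at 88.6 to 112 in both lines, whereas OSH15 takes a separate range in each group.

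The exact permutation test over libraries, two-sided, gave p = 0.1 for OSH15 in all 3 comparisons and for OSH1 in either line against Nipponbare. That is the smallest value that 2 against 3 or 3 against 3 libraries allow, so this test cannot pass 0.05 here. For OSH1 between the lines the exact p was 0.5. In tissue of this kind, more cells with the transcript and more transcript per cell cannot be told apart, for these or any of the genes below.

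Large shares of the transcriptome differed between the groups, and the members' calls have to be read against that. In GW6a-4.6 both members were called higher, as were 26.7% of the 31487 loci tested, while 19.5% were called lower and 46.3% in either direction. In OsglHAT1-OE both were again called higher, beside 22.8% of all loci, with 29.7% called lower and 52.5% in either direction. A rise at least as far as that of OSH1 was found for 4.08% of loci in GW6a-4.6 and 2.89% in OsglHAT1-OE. A rise at least as far as that of OSH15 was found for 3.18% of loci in GW6a-4.6 and for 9.71% in OsglHAT1-OE. Groups that did not overlap, with the line higher, made up 36% of loci in GW6a-4.6, with the line lower 28.5%, and 64.5% together. In OsglHAT1-OE these shares were 29%, 37.9% and 66.9%. Between the lines, OSH15 was 1 of the 24.7% of loci called lower in OsglHAT1-OE, and 9.91% had a log2 change at least as far below 0, whereas 25.3% had one at least as far above 0 as OSH1. Of all loci 32.4% were called between the lines, and 42.7% did not overlap, 11.3% with OsglHAT1-OE higher. The OSH15 pattern, called higher in both lines and lower in OsglHAT1-OE than in GW6a-4.6, was shared by 2.29% of loci, and 17.7% were called higher in both lines. The median log2 change of all loci between the lines moved from -0.13 on the deposited values to 0.01 after median-ratio scaling. The same scaling moved the split of calls between the lines from 2422 loci higher and 7787 lower in OsglHAT1-OE to 5889 higher and 5856 lower, whereas OSH15 was called lower either way. Against Nipponbare the splits moved less, from 8413 higher and 6153 lower to 7993 and 7897 in GW6a-4.6, and from 7179 higher and 9357 lower to 8687 and 8921 in OsglHAT1-OE, so the shares of all loci given here hold for the deposited values. Quantile normalization turned the OsglHAT1-OE split round, to 9120 higher and 8261 lower.

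**Figure D2:**
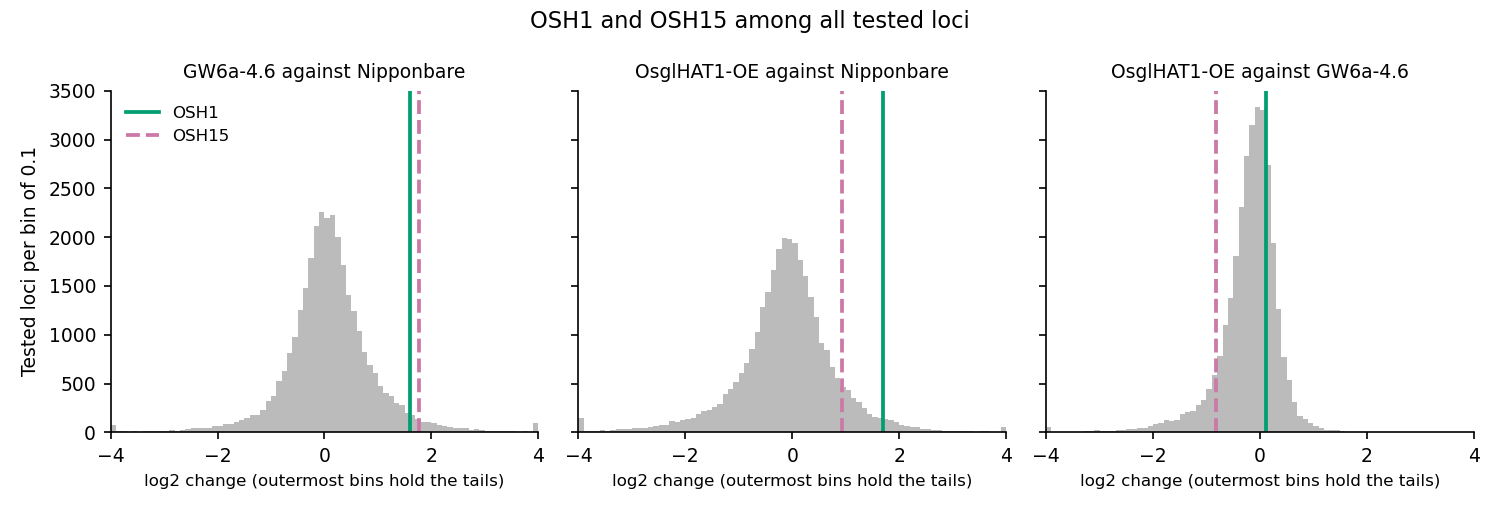
Distribution of log2 changes over the 31487 tested loci in bins of 0.1 (grey) for each comparison, with OSH1 (solid line) and OSH15 (dashed line). In GW6a-4.6 OSH1 lies at 1.60 and OSH15 at 1.77, in OsglHAT1-OE OSH1 at 1.70 and OSH15 at 0.94, and between the lines OSH1 lies at 0.11 and OSH15 at -0.83.

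The balance of the 2 genes was compared through the ratio of OSH15 to OSH1 within each library, in which a scaling factor of the library cancels. Gene length enters this ratio, so its level says nothing about which gene was more abundant, and only differences between groups are read. The ratio was 1.5 and 1.58 in Nipponbare, 1.86, 1.37 and 1.99 in GW6a-4.6, and 0.901, 0.946 and 0.844 in OsglHAT1-OE. All 3 OsglHAT1-OE libraries lay below every other library, while the GW6a-4.6 libraries spread on either side of Nipponbare. The mean log2 ratio, taken after adding a pseudocount of 1 to both values, was 0.61 ± 0.05 (SD, n = 2), 0.78 ± 0.28 (n = 3) and -0.16 ± 0.08 (n = 3). On the log2 scale OsglHAT1-OE differed from Nipponbare by -0.76, which is 1.7-fold lower, and from GW6a-4.6 by -0.93, which is 1.91-fold lower. Each had an exact two-sided permutation p of 0.1, again the smallest possible. GW6a-4.6 differed from Nipponbare by 0.17 (exact permutation p = 0.5), a value that 1 library could move, to 0.33 without replicate 2 of GW6a-4.6, 0.11 without its replicate 1 and 0.06 without its replicate 3.

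Markers of dividing cells, like the members, were higher in both lines than in Nipponbare. The 13 loci of that list, among them the replication clamp PCNA, MCM helicase subunits and B-type cyclins, summed to 690 to 692 in Nipponbare, to 1470 to 1520 in GW6a-4.6 and to 1360 to 1560 in OsglHAT1-OE. The means were 2.17 and 2.15 times that of Nipponbare. Of the 13 loci, 11 were called higher in GW6a-4.6 and 8 in OsglHAT1-OE, and the other 2 and 5 were not called. Over all loci tested, 26.7% and 22.8% were called higher in these lines. Divided by that sum in the same library, OSH1 was 1.43 times as high in GW6a-4.6 and 1.55 times as high in OsglHAT1-OE as in Nipponbare. OSH15 divided by that sum was 1.60 times as high in GW6a-4.6 but 0.905 times as high in OsglHAT1-OE. In percent of the marker sum, OSH15 was 7.25 and 6.85 in Nipponbare, 12.2, 9.86 and 11.8 in GW6a-4.6, and 6.48, 6.70 and 5.95 in OsglHAT1-OE, which lay just below Nipponbare. The part that dividing cells have in the members' rise was not tested beyond these ratios.

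**Figure D3:**
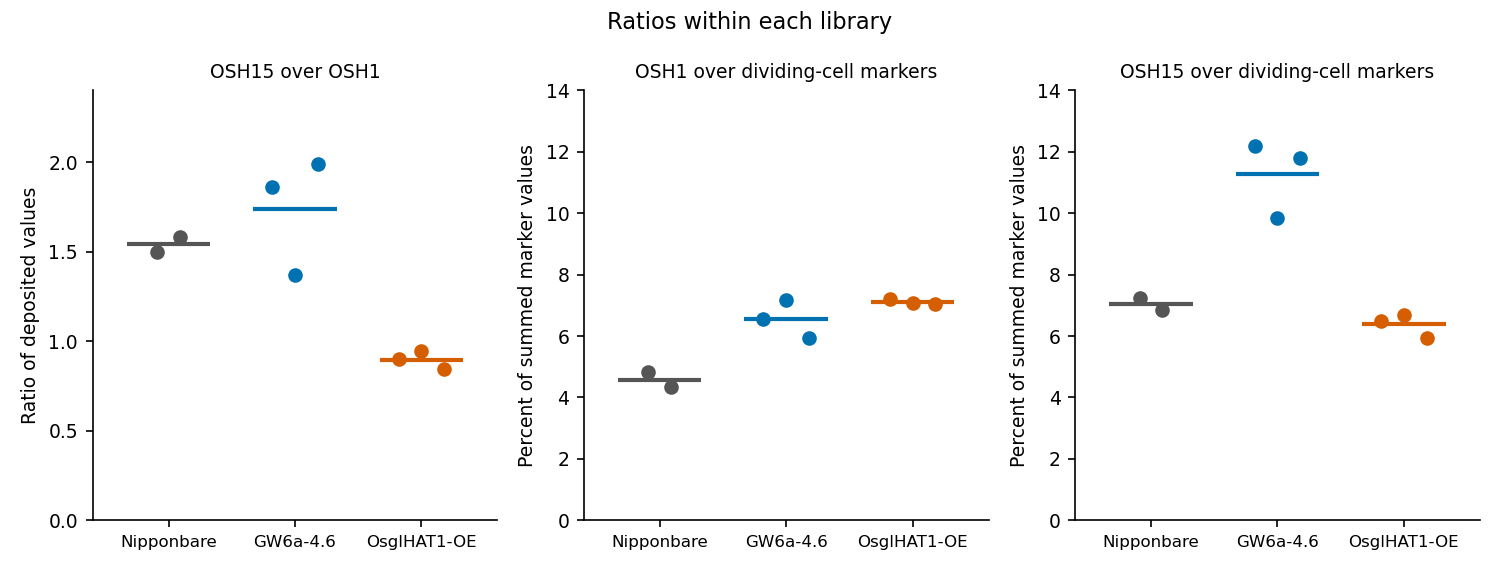
Within-library ratios: OSH15 over OSH1 (left), and OSH1 (middle) and OSH15 (right) in percent of the summed values of 13 dividing-cell markers; points are libraries and lines are group means. The 3 OsglHAT1-OE libraries are lowest in the left panel at 0.844 to 0.946, and in the right panel they lie beside Nipponbare while GW6a-4.6 lies above both.

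Other cell types were also represented in the libraries. The counts of calls below stand beside 26.7% higher and 19.5% lower in GW6a-4.6, and 22.8% and 29.7% in OsglHAT1-OE, over all loci. Leaf primordium markers, the YABBY genes and the DROOPING LEAF-like locus, summed to 40.7 to 43.6 in Nipponbare, 71.5 to 89.6 in GW6a-4.6 and 64.4 to 92.8 in OsglHAT1-OE, with 3 of 3 tested loci called higher in either line. Divided by that sum, OSH1 was 1.64 times as high in GW6a-4.6 and 1.75 times as high in OsglHAT1-OE as in Nipponbare. OSH15 divided by it was 1.84 times as high in GW6a-4.6 but 1.02 times as high in OsglHAT1-OE, at 109, 120 and 125 percent of the sum beside 123 and 108 percent in Nipponbare. The YABBY locus Os02t0643200-01 lost its call without replicate 1 of Nipponbare in GW6a-4.6 (0.41, adjusted p = 0.145) and in OsglHAT1-OE (0.39, adjusted p = 0.144), and in the latter also without replicate 1 (0.35, adjusted p = 0.0861) or 2 (0.41, adjusted p = 0.0531) of OsglHAT1-OE. The 20 chloroplast markers, RuBisCO small subunits and chlorophyll-binding proteins, summed to 3400 to 3760, 2760 to 3450 and 3410 to 4130, of which 18 were tested and 2 stood at 0 in every library. In GW6a-4.6, 3 were called higher and 5 lower, and in OsglHAT1-OE 5 higher and 3 lower; after median-ratio scaling those counts were 2 and 10, and 6 and 3. The 9 floral MADS-box loci summed to 57.4 to 66.8 in Nipponbare, 29.3 to 39.8 in GW6a-4.6 and 26.2 to 33.3 in OsglHAT1-OE. Of these 5 were tested, and 2 were called lower in each line, with 1 higher in GW6a-4.6. Of 6 meristem markers outside the KNOX family, 3 were tested, and their sum was alike in range, at 98.4 to 111, 92.5 to 106 and 97.3 to 136. In each line 1 of the 3 was called higher, Os04t0649400-00, which at 0 and 0.384 in Nipponbare passed the filter only through the lines. Its calls were lost without replicate 1 of Nipponbare and are not read as a result. After median-ratio scaling 1 was called higher and 1 lower in GW6a-4.6, and 2 higher in OsglHAT1-OE. Within that list the WUSCHEL-related locus Os04t0663600-00 held at most 0.147 in any library, under the value of 3 reads. The share of each cell type in a library was not measured, and the part of these cell types in the members' rise was not tested beyond the ratios given.

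The wider KNOX family did not move as a block. It was gathered by annotation text or identifier and not divided into classes, so its loci need not share the meristem role described above. Of its 12 loci, 11 were tested. In GW6a-4.6, 5 were called higher and 1 lower, with a median log2 change of 0.78 against 0.07 over all loci. In OsglHAT1-OE, 4 were called higher and 3 lower, with a median of 0.16 against -0.08. Over all loci tested, 26.7% were called higher and 19.5% lower in GW6a-4.6, and 22.8% higher and 29.7% lower in OsglHAT1-OE. Without OSH1 and OSH15, 3 of 9 were called higher and 1 lower in GW6a-4.6, and 2 higher and 3 lower in OsglHAT1-OE. Leaving out replicate 3 of OsglHAT1-OE, those counts were 5 higher and 1 lower, and 3 higher and 2 lower.

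HOS13 (Os03t0727200-00), which RefSeq lists with the synonym OSH3 and which lies near OSH1 on chromosome 3, was called higher in both lines. Its values were 11.4 and 6.91 in Nipponbare, 23.2, 20.6 and 24.6 in GW6a-4.6, and 18.9, 20.6 and 16.5 in OsglHAT1-OE. Both lines lay above Nipponbare, by log2 changes of 1.26 (SE 0.20, limma adjusted p = 2.23e-06) and 0.98 (SE 0.20, limma adjusted p = 8.42e-05), and the change between the lines was not called (-0.28, adjusted p = 0.254). Of the loci that the table's identifiers place between OSH1 and HOS13, Os03t0727100-01 had log2 changes of 0.15 and -0.06 and Os03t0727150-00 of 0.70 and 0.25, none called. RefSeq, on another assembly than the one used for these values, lists 1 protein-coding gene between the pair and an lncRNA gene that overlaps OSH1. The strand setting of the counting is not given in the sources used here, so reads of OSH1 and of such a transcript could not be told apart.

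HOS66 (Os03t0123500-01) rose in GW6a-4.6, from 22.4 and 21.3 in Nipponbare to 52.5, 48.7 and 50.7, a log2 change of 1.18 (limma adjusted p = 6.59e-08). In OsglHAT1-OE it stood at 27.3, 30.0 and 21.1, with a log2 change of 0.23 (adjusted p = 0.214) that passed the test without replicate 3 (0.37, adjusted p = 0.0231) and after median-ratio scaling (0.31, adjusted p = 0.0426). Like OSH15, it was lower in OsglHAT1-OE than in GW6a-4.6, by a log2 change of -0.94 (limma adjusted p = 1.23e-06). The knotted-1-like locus Os03t0771500-01 was low throughout, at 2.30 to 6.25, and was called higher in GW6a-4.6 (0.95, adjusted p = 0.00414) and in OsglHAT1-OE (0.75, adjusted p = 0.0201). The second of these calls was lost without replicate 1 of Nipponbare (0.79, adjusted p = 0.0603), without its replicate 2 (0.71, adjusted p = 0.0915) and without replicate 2 of OsglHAT1-OE (0.71, adjusted p = 0.0584).

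Other KNOX loci fell or held level where OSH1 and OSH15 rose. The knotted-1-like 13 locus Os08t0292900-01 was at 98.9 and 101 in Nipponbare, 69.3, 74.5 and 80.0 in GW6a-4.6, and 52.0, 63.5 and 52.5 in OsglHAT1-OE. It was called lower in both lines, with log2 changes of -0.42 (limma adjusted p = 0.00397) and -0.83 (limma adjusted p = 2.37e-07), the former lost without replicate 2 of Nipponbare (-0.40, adjusted p = 0.0534). OSH6 (Os01t0302500-01) had 43.3 and 39.2, then 43.9, 40.7 and 50.3, then 31.9, 34.7 and 22.7, so that OsglHAT1-OE alone lay below Nipponbare (-0.48, limma adjusted p = 0.0104). That call was lost without replicate 3 of OsglHAT1-OE (-0.30, adjusted p = 0.063) or replicate 1 of Nipponbare (-0.41, adjusted p = 0.133). The knotted-1-like 11 locus Os06t0646600-01 was likewise called lower in OsglHAT1-OE (-0.40, adjusted p = 0.0059), which was lost without replicate 2 of Nipponbare (-0.25, adjusted p = 0.196). OSH71 (Os05t0129700-01) was at 76.9 to 106 in all libraries with log2 changes of 0.23 (adjusted p = 0.0886) and 0.04 (adjusted p = 0.812), the former called without replicate 3 of OsglHAT1-OE (adjusted p = 0.0232). OSH10 (Os03t0673000-00) and Os03t0772100-00 held at most 2.68 in any library and were not called, and Os03t0673500-00 was too low to test.

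**Figure D4:**
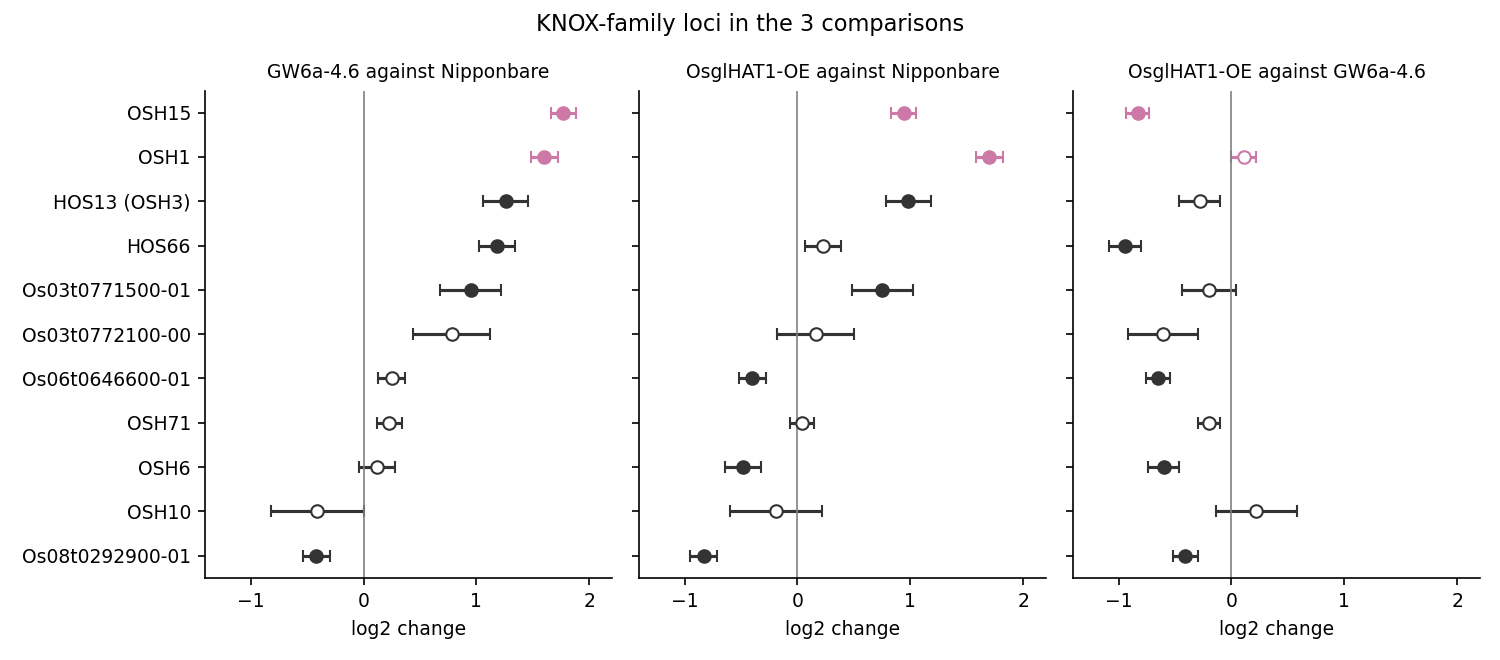
Log2 changes of the 11 tested KNOX-family loci in the 3 comparisons, with standard errors; filled points passed the limma test at an adjusted p of 0.05 and open points did not, and OSH1 and OSH15 are in colour. OSH1 and OSH15 show the farthest rises in GW6a-4.6, at 1.60 and 1.77, and between the lines the 5 filled points all lie below 0.

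Between the lines, 5 of the 11 tested KNOX loci were called lower in OsglHAT1-OE, beside 24.7% of all loci. OSH1 at 0.11 and OSH10 at 0.22 were the loci with a change above 0 on the deposited values and neither was called, whereas 7.69% of all loci were called higher. Median-ratio scaling and edgeR each called 1 KNOX locus higher, OSH1. The KNOX median was -0.41 against -0.13 over all loci, and after median-ratio scaling it was -0.26 against 0.01. OSH15, HOS66, OSH6 and the knotted-1-like 11 and 13 loci were the 5, and each was also called lower after scaling. OSH1 was the exception among the loci that rose in either line, since its change between the lines was not below 0 on the deposited values, with median-ratio scaling or in edgeR.

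BELL-type homeobox proteins, which pair with KNOX proteins, were called higher at 3 of 7 loci in GW6a-4.6 and 4 in OsglHAT1-OE, and lower at 1 in each. Over all loci tested, 26.7% and 22.8% were called higher in these lines, and 19.5% and 29.7% lower. The BELL medians were 0.22 and 0.34 against 0.07 and -0.08 over all loci. The BEL1-type locus Os06t0562300-00 went from 6.44 and 8.06 in Nipponbare to 32.0, 19.9 and 21.7 in GW6a-4.6 and 28.9, 31.4 and 26.1 in OsglHAT1-OE, log2 changes of 1.61 (limma adjusted p = 1.02e-08) and 1.86 (limma adjusted p = 2.72e-10). The JUBEL2-like locus Os05t0455200-01 rose less, by 0.58 and 0.67 on the log2 scale. The Prep-like locus Os12t0636200-01 was lower in OsglHAT1-OE (-0.61, limma adjusted p = 4.19e-07), and its call in GW6a-4.6 (-0.25, adjusted p = 0.0235) was lost without replicate 1 (adjusted p = 0.112) or 2 (adjusted p = 0.115) of Nipponbare or replicate 3 of GW6a-4.6 (adjusted p = 0.118). The locus annotated as similar to QSH-1, Os01t0848400-01, was at 104 to 129 in all libraries and not called.

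Rough sheath 2 and AS2 are known for keeping KNOX genes off in leaves. The rough sheath 2 homolog and the LOB domain family to which AS2 belongs were examined next. Other LOB domain loci need not have that role, so counts over this list are not counts of KNOX repressors. The rough sheath 2 homolog Os12t0572000-00 was at 103 to 154, with log2 changes of -0.18 (adjusted p = 0.223) in GW6a-4.6 and -0.29 (limma adjusted p = 0.0383) in OsglHAT1-OE. Which line passed depended on the scaling, since after median-ratio scaling GW6a-4.6 was called (-0.25, adjusted p = 0.0348) and OsglHAT1-OE was not (-0.21, adjusted p = 0.0717). The OsglHAT1-OE call was also lost without replicate 1 (-0.20, adjusted p = 0.351) or 2 (-0.38, adjusted p = 0.0756) of Nipponbare and without replicate 2 (-0.30, adjusted p = 0.0659) or 3 (-0.19, adjusted p = 0.176) of OsglHAT1-OE. The AS2-like locus Os01t0889400-01 was at 6.73 to 13.2 and not called in either line. Of the whole list of 26 loci 18 were tested, and 10 were called higher and 1 lower in GW6a-4.6, against 9 higher and 4 lower in OsglHAT1-OE. Over all loci tested, 26.7% were called higher and 19.5% lower in GW6a-4.6, and 22.8% higher and 29.7% lower in OsglHAT1-OE. The list medians were 0.94 and 0.38 against 0.07 and -0.08 over all loci. The largest change among those named was at the LOB domain 39-like locus Os03t0445700-01, from 2.63 and 0.384 in Nipponbare to 28.4 to 34.6 in GW6a-4.6 and 28.3 to 47.8 in OsglHAT1-OE. It passed the filter on low values only through the lines, where it is high, so its calls are not read as a result. The list counts above include this locus. Leaving out 1 library moved its log2 change between 3.13 and 4.52 in GW6a-4.6 and between 3.42 and 4.81 in OsglHAT1-OE. The LBD40-like locus Os01t0129600-00 was at 1.15 to 1.46, 14.1 to 19.1 and 2.64 to 3.52, and was lower in OsglHAT1-OE than in GW6a-4.6 by a log2 change of -2.16 (limma adjusted p = 2.83e-09). Its call over Nipponbare in OsglHAT1-OE (0.82, adjusted p = 0.00941) was lost without replicate 2 of Nipponbare (0.72, adjusted p = 0.0753). The LOB domain 40-like locus Os01t0511000-01 went opposite ways in the lines, at 63.6 to 66.7 in Nipponbare, 130 to 149 in GW6a-4.6 (1.05, limma adjusted p = 4.31e-09) and 33.5 to 44.3 in OsglHAT1-OE (-0.69, limma adjusted p = 1.11e-05).

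Cytokinin genes, whose products make, activate, break down or respond to the hormone, rose more often than they fell. Of 22 tested loci out of 25, 13 were called higher and 1 lower in GW6a-4.6, with a median log2 change of 0.69, and 14 higher and 1 lower in OsglHAT1-OE, with a median of 1.23. Over all loci tested, 26.7% were called higher and 19.5% lower in GW6a-4.6 (median 0.07), and 22.8% higher and 29.7% lower in OsglHAT1-OE (median -0.08). Those named by adjusted p were type-A response regulators, which are induced by cytokinin and dampen its signal. Os04t0673300-01 went from 9.65 and 10.4 in Nipponbare to 37.8, 26.0 and 29.7 in GW6a-4.6 and 43.4, 43.0 and 39.9 in OsglHAT1-OE, log2 changes of 1.53 (limma adjusted p = 9.17e-10) and 1.97 (limma adjusted p = 1.21e-12). Os04t0442300-01 changed by 1.32 and 1.65 and Os02t0557800-02 by 1.06 and 1.29. The isopentenyl transferase IPT4-like locus Os07t0211700-00, of the enzyme type that starts cytokinin synthesis, was at 0 and 0.192 in Nipponbare, 1.96, 1.15 and 1.99 in GW6a-4.6, and 2.5, 1.3 and 1.18 in OsglHAT1-OE. It passed the filter on low values only through the lines where it is high, so its calls are not read as a result. The cytokinin counts above include this locus. LOG-type enzymes activate cytokinin, and their loci differed. The LOGL2-like locus Os02t0628000-00 was at 2.93 and 2.88 in Nipponbare, 13.2, 11.1 and 10.7 in GW6a-4.6, and 17.3, 17.1 and 12.8 in OsglHAT1-OE. It was called higher in both lines, with log2 changes of 1.69 (limma adjusted p = 1.12e-07) and 2.09 (limma adjusted p = 8.37e-10). The LOG-type locus Os01t0588900-01 was not called against Nipponbare (0.37, adjusted p = 0.144, and -0.29, adjusted p = 0.247) and was lower in OsglHAT1-OE than in GW6a-4.6 (-0.66, limma adjusted p = 0.00537), a call lost with quantile normalization or no filter on low values. The 1 lower locus in either line was the cytokinin dehydrogenase 2-like Os01t0197700-01, of an enzyme type that breaks cytokinin down, with log2 changes of -2.59 and -1.99.

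Gibberellin oxidases were called in both directions. Of 16 loci 11 were tested, with 4 called higher and 3 lower in GW6a-4.6 and 5 higher and 3 lower in OsglHAT1-OE. Over all loci tested, 26.7% were called higher and 19.5% lower in GW6a-4.6, and 22.8% higher and 29.7% lower in OsglHAT1-OE. Calls in both directions are thus no trait of this list. GA 2-oxidases inactivate gibberellin, and the GA 2-oxidase 4-like locus Os01t0757200-01 ran in the order of OSH15, at 19.0 and 17.9 in Nipponbare, 90.5, 80.9 and 83.3 in GW6a-4.6 and 27.3, 29.7 and 21.5 in OsglHAT1-OE. Its log2 changes were 2.14 (limma adjusted p = 5.28e-15) and 0.47 (limma adjusted p = 0.00722), the second lost without replicate 2 of Nipponbare (0.43, adjusted p = 0.0748). The OsGA2ox1-like locus Os05t0158600-01 rose in both lines by 1.82 and 1.52. The GA 2-oxidase 5-like locus Os01t0209700-01 was at 6.14 and 4.99 in Nipponbare and 0.294 to 0.913 in OsglHAT1-OE, a log2 change of -2.10. It passed the filter on low values only through Nipponbare and GW6a-4.6, where it is high, so its call in OsglHAT1-OE is not read as a result. The oxidase counts above include this locus. Its call in GW6a-4.6 (0.81, limma adjusted p = 0.0241) was lost without replicate 1 (0.65, adjusted p = 0.11) or 2 (0.76, adjusted p = 0.0594) of GW6a-4.6. That call was also lost without replicate 1 (0.93) or 2 (0.68) of Nipponbare. Quantile normalization, DESeq2 and no filter on low values lost it too, and 13 of 20 alternatives kept it. Gibberellin 20 oxidase 1 (Os03t0856700-02), of the enzyme type that builds active gibberellin and that KNOX proteins are known to repress in other plants, was at 17.3 and 19.2 in Nipponbare, 7.85, 4.59 and 6.34 in GW6a-4.6, and 13.9, 15.0 and 9.29 in OsglHAT1-OE. It was called lower in GW6a-4.6 (-1.43, limma adjusted p = 4.83e-06) and not in OsglHAT1-OE (-0.51, adjusted p = 0.0719), and it was higher in OsglHAT1-OE than in GW6a-4.6 (0.92, limma adjusted p = 0.000865). With a pseudocount of 5 it was called lower in OsglHAT1-OE too (-0.40, limma adjusted p = 0.0483).

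Brassinosteroid genes rose more often than they fell, at 14 of 22 tested loci in GW6a-4.6 with 1 lower, and at 11 in OsglHAT1-OE with 4 lower, beside 26.7% higher and 19.5% lower, and 22.8% higher and 29.7% lower, over all loci. After median-ratio scaling, 12 were called higher in GW6a-4.6 and 15 in OsglHAT1-OE, with 1 and 4 lower. Which line had more loci called higher thus depended on the scaling. The P450 90C1-like locus Os01t0197100-00, of a family that makes the hormone, was at 5.85 and 3.65 in Nipponbare, 32.1 to 38.0 in GW6a-4.6 and 19.6 to 28.9 in OsglHAT1-OE. Among the loci annotated as BRI1-associated receptor kinases, Os05t0371600-01 rose by 2.18 and 1.75 on the log2 scale. Another, Os05t0414700-01, was at 147 and 171 in Nipponbare, 107 to 126 in GW6a-4.6 and 45.8 to 49.9 in OsglHAT1-OE. It was called lower in OsglHAT1-OE (-1.72, limma adjusted p = 5.55e-16), and its call in GW6a-4.6 (-0.44, adjusted p = 0.00112) was lost without replicate 2 of Nipponbare (-0.34, adjusted p = 0.0755). OSH1 is known in rice to act on brassinosteroid-inactivating CYP734A enzymes. The locus annotated as CYP734A7-like, Os07t0647200-00, was at 0 to 0.768 in every library and was not tested. No other CYP734A locus is named here, so the action of OSH1 on these enzymes was not examined.

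Of 14 other meristem and inflorescence regulators 7 were tested, and 5 were called higher and 1 lower in each line. Over all loci tested, 26.7% were called higher and 19.5% lower in GW6a-4.6, and 22.8% higher and 29.7% lower in OsglHAT1-OE. The MADS-box gene OsMADS18 (Os07t0605200-01) was lower in both lines, at 47.7 and 44.5 in Nipponbare, 19.8, 18.4 and 15.6 in GW6a-4.6, and 30.5, 29.1 and 21.7 in OsglHAT1-OE. Cytochrome P450 78A11 (Os10t0403000-00), known in rice for setting the pace of leaf initiation, rose by 0.96 and 0.91 on the log2 scale, and the DUF640 locus Os10t0478000-01 by 0.67 and 0.62. The loci annotated as MADS-box factors 14 and 15, which mark the turn to flowering, held at most 1.61 in any library.

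Auxin efflux carriers, which direct auxin towards the sites where leaves start, were called higher at 11 of 15 loci in GW6a-4.6 and 9 in OsglHAT1-OE, and lower at 1 in each, where 26.7% and 22.8% of all loci were called higher. REH1 (Os02t0743400-01) was at 115 and 94.5 in Nipponbare, 168, 160 and 167 in GW6a-4.6, and 247, 244 and 227 in OsglHAT1-OE. Like OSH15 it rose in both lines, but OsglHAT1-OE was highest, whereas OSH15 was highest in GW6a-4.6. The REH1-like locus Os06t0232300-01 changed by 1.5 and 1.72 on the log2 scale. The dividing-cell markers moved in the same comparisons as each of these lists, and their part in the lists' counts was not tested.

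**Figure D5:**
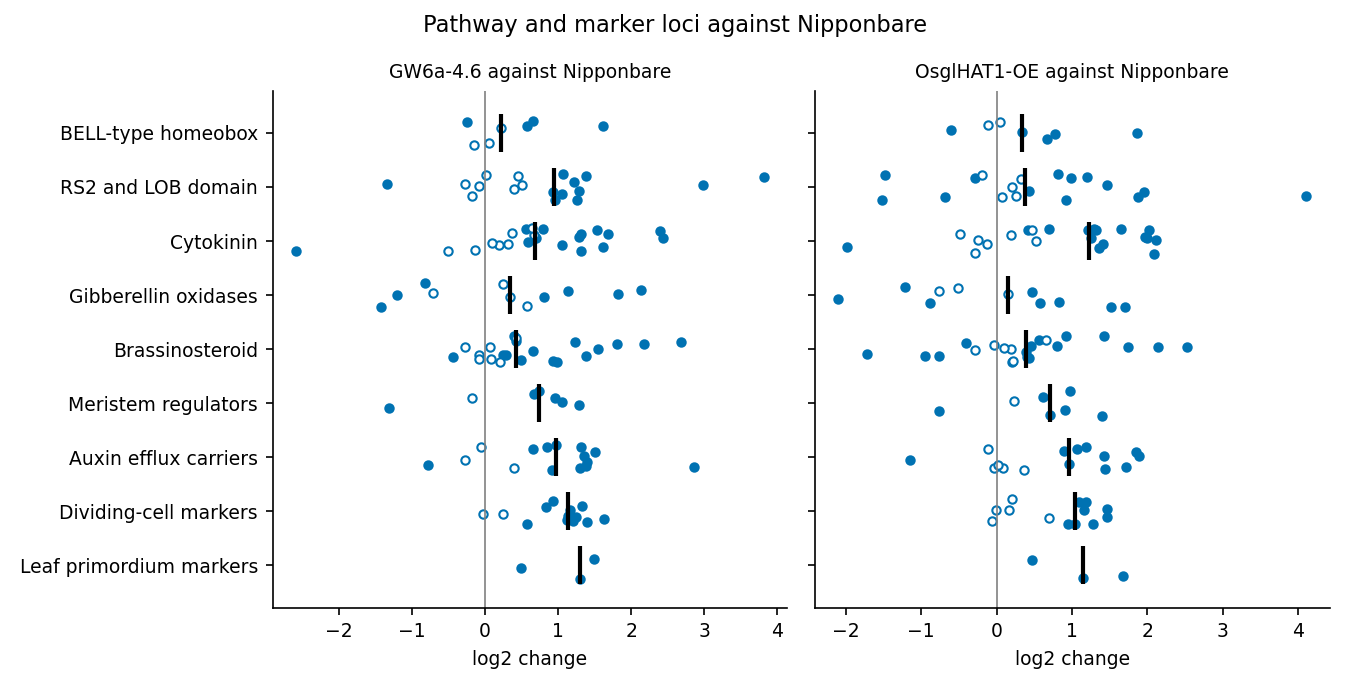
Log2 changes against Nipponbare of each tested locus in 7 pathway lists and 2 marker lists, for GW6a-4.6 (left) and OsglHAT1-OE (right); filled points passed the limma test at an adjusted p of 0.05, bars are list medians, and points are spread vertically for legibility. Both panels use the same Nipponbare libraries, and the cytokinin median is 0.69 on the left and 1.23 on the right while the 3 leaf primordium markers are filled in both.

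The loci whose values ran most like those of OSH1 over the 8 libraries were a kinesin motor locus (Os01t0605500-00), with a Pearson r of 0.9975 on log2 values, a peroxidase 56-like locus (Os03t0563600-01), a serine carboxypeptidase (Os11t0522900-01), a dnaJ-like chaperone (Os02t0195800-01) and a malate dehydrogenase precursor (Os01t0829800-01, r = 0.9962). Those most like OSH15 were a KI domain interacting kinase-like locus (Os07t0541800-01, r = 0.9962), a shikimate kinase-like locus (Os02t0749300-01), a helix-loop-helix factor (Os02t0705500-01), a locus similar to brown planthopper-induced resistance protein 1 (Os02t0818000-01) and a glycoside hydrolase (Os10t0370500-01, r = 0.9916). The kinesin locus had means of 26.0, 64.9 and 69.4 in Nipponbare, GW6a-4.6 and OsglHAT1-OE, and the KI domain kinase-like locus had 2.71, 41.4 and 11.3. OSH1 and OSH15 correlated with each other at 0.80. Among 13828 candidate loci with a mean of at least 10, OSH15 ranked 2782 in likeness to OSH1, and OSH1 ranked 2108 in likeness to OSH15. The 8 libraries fall into 3 groups, so these correlations describe the group pattern and carry no test.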

How the data were processed

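Values were deposited by the authors as 1 signal per transcript model and library, called RPM per the file headers. Bowtie, edgeR and build IRGSP-1.0 were used per the submitters' processing notes, with no versions or roles given. Dividing by what 1 read adds in that library gave a whole number for 100% of values, to within 0.01 read, so whole reads were recovered. Columns summed to 2411271 to 2690367, above the total that RPM implies for reads counted once. A read may thus be counted at more than 1 model, or the total may leave out some reads, and the sources used here do not say which. Near-identical copies may share reads. The planned test for RPM was kept.

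For each locus the model with the highest mean was used, and the 31487 loci with a value of at least 1 in at least 2 libraries were tested with limma 3.58.1 in R 4.3.3 on log2(value + 1). All 8 libraries entered 1 model without further scaling, and p-values were adjusted by Benjamini-Hochberg at 0.05. Log2 changes understate the change of low genes, and folds are ratios of group means. The fit was also run on simulated data, with few loci changed, in GW6a-4.6 only, and no scaling shift between libraries. That setting differs from these data, where large shares of loci differed, so it does not bear on the calls here. Exact permutation tests and Poisson intervals used SciPy 1.17.1 in Python 3.11.15. Intervals cover counting error only, since duplicate reads cannot be told apart.

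Alternatives were median-ratio and quantile scaling, pseudocounts of 0.5 and 5, other filters, no prior trend, each pair of groups alone, all models, a replicate block, edgeR 4.0.16 and DESeq2 1.42.0 on recovered reads, and leaving out each library.

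Named were the 2 members, every KNOX-family locus, and from each pathway list up to 3 loci with the smallest adjusted p in either line plus known KNOX-pathway genes, and for likeness the 5 loci of highest correlation. List loci were found by annotation text or identifier. One locus that this rule names is not reported here. The members and lists were chosen with earlier results of these data known. RefSeq gene names came from a table of another assembly, so none of its coordinates are given.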

Additional observations from a re-analysis of the deposited data

Results flagged for a closer look

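The lines differed from each other at 5 KNOX-family loci by a direct test of the difference, each lower in the libraries labelled OsglHAT1-OE than in those labelled GW6a-4.6. The log2 changes were -0.83 for OSH15 (Os07t0129700-01, limma adjusted p = 3.56e-08), -0.94 for HOS66 (Os03t0123500-01, adjusted p = 1.23e-06), -0.65 for the knotted-1-like 11 locus (Os06t0646600-01, adjusted p = 1.06e-05), -0.60 for OSH6 (Os01t0302500-01, adjusted p = 0.00101) and -0.41 for the knotted-1-like 13 locus (Os08t0292900-01, adjusted p = 0.00255). In all 5 the 3 OsglHAT1-OE libraries lay below the 3 GW6a-4.6 libraries, as did 31.4% of all loci tested. Median-ratio scaling left -0.67, -0.79, -0.50, -0.45 and -0.26 in the same order, each still called.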

How the results depend on the processing

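OSH1 and OSH15 kept their direction and their call against Nipponbare, and OSH15 between the lines, under all 20 alternatives. The log2 changes ran from 1.49 to 1.67 and 1.59 to 1.82 for OSH1 in GW6a-4.6 and OsglHAT1-OE, from 1.69 to 1.85 and 0.88 to 1.05 for OSH15, and from -0.91 to -0.67 for OSH15 between the lines. OSH1 between the lines ran from 0.04 to 0.26 (adjusted p 0.0115 to 0.859) and was called only with median-ratio scaling, edgeR and DESeq2, at 0.26 each. Without replicate 3 of OsglHAT1-OE it was 0.18 (adjusted p = 0.196). The cause of these differences was not tested. After median-ratio scaling its exact p was 0.1.

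Same-numbered libraries deviated together by correlations of -0.00256 to 0.0648, so the numbers were not taken to pair them. With a replicate block the values were 1.67, 1.77 and 0.11 for OSH1 and 1.8, 0.98 and -0.83 for OSH15, in the order GW6a-4.6 and OsglHAT1-OE against Nipponbare and OsglHAT1-OE against GW6a-4.6, and the block changed no call of either gene; counts of called loci were 14698, 16421 and 10908 against 14566, 16536 and 10209 without it. Leaving out 1 library gave 10718 to 15798, 12779 to 16651 and 8193 to 9380 called loci. The split of calls changed with scaling in all 3 comparisons, as given above, and edgeR called 6063 higher and 5854 lower in OsglHAT1-OE against GW6a-4.6.

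The scaled exact tests and the list counts under median-ratio scaling and without replicate 3 of OsglHAT1-OE were added after seeing the data. Among list counts, median-ratio scaling moved rough sheath 2 and LOB domain loci lower in GW6a-4.6 from 1 to 2, and meristem regulators lower there from 1 to 2. Brassinosteroid loci between the lines moved from 2 higher and 8 lower to 4 and 4. Those higher than in Nipponbare moved from 14 to 12 in GW6a-4.6 and from 11 to 15 in OsglHAT1-OE. Scaling moved counts higher in OsglHAT1-OE than in GW6a-4.6 from 0 to 2 for BELL-type and from 0 to 1 for KNOX loci. For rough sheath 2 and LOB domain loci that count moved from 1 to 2. Without replicate 3 of OsglHAT1-OE, the KNOX loci other than OSH1 and OSH15 called higher in GW6a-4.6 went from 3 to 5. The OSH6 difference between the lines was lost with no filter on low values. The groups hold 2 or 3 libraries, which limits every exact test to p = 0.1.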
